A study of Mus musculus with 39 samples.

Results

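The genes of the cytosolic ribosomal proteins were followed over a diet time course in cells of mouse brown fat. The members were the gene symbols of the array made of Rpl or Rps and a number, which a letter and a digit may follow. Rpl or Rps with p and a number (the stalk proteins) or with a (Rpsa) also counted, and symbols with further letters did not. This rule took 84 of 29411 gene symbols and used no measured value. The 84 members had 130 probes, and each gene was read from the probe with the highest mean signal. All 84 were well above background on at least 6 arrays, the limit set for every probe, and 77 were well above background on all 39 arrays. The other 7 reached this on fewer arrays, among them Rpl10l on 9, Rpl3l on 27, Rpl6 and Rps6 on 37 each, and Rpl21 and Rps27a on 38 each.

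The samples were C57BL/6J mice, a common laboratory strain, put on their diets after weaning at 3 to 4 weeks of age. LFC was a low fat diet with 10% of calories from fat. HFC was a high fat diet, with raised sucrose and 60% of calories from fat. HF5, HF20 and HF75 received this same high fat diet with 5, 20 or 75 µg of KAL-1, a botanical formulation, so that HFC is their control. RNA came from the stromal vascular cells of brown fat, which the labels call infiltrating macrophages, and was hybridised in 1 colour. Each array held 1 diet at 1 time label, with 10 arrays for LFC (Day 1, 6, 10 and 14 and Week 0, 3, 9, 12, 15 and 18), 11 for HFC (the same and Week 6) and 6 for each dose (Week 3 to Week 18). Weeks are counted from Day 14, so Day 14 and Week 0 are the same day. The sources used here do not say whether animals were pooled for an array, and no diet was repeated under 1 time label. A p-value of a limma diet comparison therefore measures the difference against its variation from 1 time label to the next, pooled over the diets. The p-value of a slope measures it against the spread of the arrays about the fit.

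A cytosolic ribosome joins a large and a small subunit, each made of ribosomal RNA and many small proteins that are needed in about equal numbers. Their mRNAs are among the most abundant of a cell and, in vertebrates, many begin with a run of pyrimidines, the 5′ terminal oligopyrimidine motif, through which the mTOR pathway and LARP1 set how strongly they are translated. Proteins named Rpl belong to the large subunit and those named Rps to the small one. Rplp0, Rplp1 and Rplp2 form the stalk of the large subunit, on which elongation factors act. Macrophages, like other cells, need ribosomes for growth and secretion, and these genes are often used as a base level in expression studies.

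The start sites of several members are printed to show this motif, which stands in the gene and was not measured by the arrays. RefSeq (GRCm38.p6) gave a promoter for 62 of the 84 members. A run of at least 6 C or T that lay within 5 bases of the start was found in 32 of them, or 51.6%, against 24.0% of 27025 genes. Each window has 30 bases around the annotated start, read on the strand of the gene, and capitals mark the run. Rpl7a, Rpl35 and Rpl15 are shown for their long runs and the others because they are described further on. Rpl7a holds the longest run shown, and Rps13 and Rplp0 hold none in this window.
Rpl7a (chr2:26910792-26910821, + strand): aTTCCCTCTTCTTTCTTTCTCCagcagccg
Rpl35 (chr2:39005117-39005146, - strand): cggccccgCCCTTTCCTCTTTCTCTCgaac
Rpl15 (chr14:18270972-18271001, - strand): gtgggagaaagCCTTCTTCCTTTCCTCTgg
Rplp2 (chr7:141447636-141447665, + strand): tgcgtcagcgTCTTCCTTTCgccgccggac
Rps6 (chr4:86857353-86857382, - strand): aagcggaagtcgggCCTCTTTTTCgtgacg
Rps13 (chr7:116334176-116334205, - strand): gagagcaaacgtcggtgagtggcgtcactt
Rplp0 (chr5:115559452-115559481, + strand): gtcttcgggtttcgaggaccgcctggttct
The match is a description of the letters around the annotated start only. In the measurements that follow, the correlation with the other members had a median of 0.863 for members with the run and 0.900 for those without.

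Some arrays stood apart and are named here before the results. Array brightness, taken as the 75th percentile of the signal over all spots, ranged from 18.1 intensity units on HF20 Week 9 to 3974 on HF20 Week 15. On HF20 Week 15, 71.4% of spots carried an outlier flag and were left out, against 18.6% on HF5 Week 12, 11.1% on HFC Week 12 and at most 2.19% on the other arrays. The titles of 9 arrays hold BA or BAT, where most others hold B-A or B, and the labels do not explain these letters. These are LFC Day 6, Week 12 and Week 18, HFC Day 1 and Week 9, HF5 Week 9 and Week 15, HF20 Week 12 and HF75 Week 15. Of these, 8 are among the 11 brightest arrays, and 8 had a shared level of the members, described next, below the mean of all arrays, against 9 of the 30 others. The deposited series table heads its Day 14 columns the other way round from the arrays. Its LFC column held HFC minus LFC (r = -0.9951 with LFC minus HFC over 40628 probes), and its HFC column was 0 throughout. The arrays were used as their labels name them, with the Day 14 arrays exchanged as an alternative. The HF20 Week 12 array is HF20 by its title and source name, while another label gives the high fat diet alone.

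The members shared 1 level on an array to a large extent, and this level differed between arrays far more than between diets. The shared level is the mean over the 77 members well above background on all arrays, after each gene was centred, in log2 units above the 75th percentile of the array. In LFC it ranged from 4.74 (Week 12) over a median of 5.84 to 6.37 (Week 3). In HFC it ranged from 5.02 (Week 9) over a median of 5.68 to 6.05 (Week 18). In HF5 it lay between 4.00 (Week 12) and 6.29 (Week 3), with a median of 5.53. The 5 diets overlapped, and the medians of all of them lay within the range of each. In HF20 the shared level was 2.25 at Week 15 and reached 6.23 at Week 9, with a median of 5.59. In HF75 it lay between 5.20 (Week 15) and 6.44 (Week 9), with a median of 5.76. HF20 Week 15 was therefore the lowest array, at -3.29 from the mean of all arrays, and HF5 Week 12 the next, at -1.55. Both are among the arrays with many outlier-flagged spots. These spots were left out of the members' values but counted in the 75th percentile that the values were divided by. The part of this in the low levels was not tested. In RNA of a mixed tissue, fewer cells of a type and less RNA of a gene per cell cannot be told apart.

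**Figure D1:**
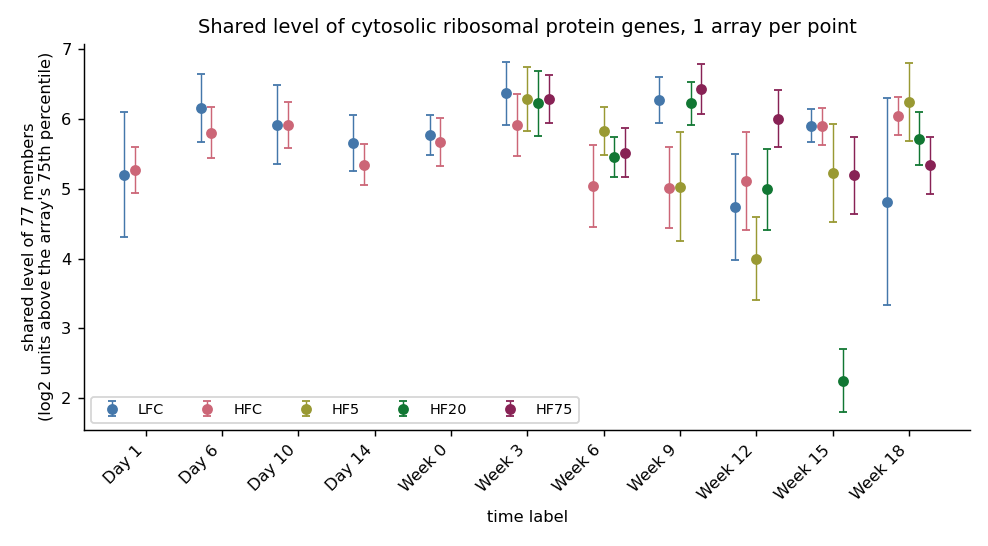
Shared level of the 77 members (log2 units above the 75th percentile of the array) by time label and diet. Each point is 1 array, and its bar is the SD over the members of their centred values, not an error between replicates. HF20 Week 15, at 2.25, lies apart from the other arrays, which lie between 4.00 and 6.44.

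The shared level was set against array brightness, since brightness differed so widely. Over the 39 arrays the correlation of the shared level with log2 of the 75th percentile was -0.744 (Pearson) and -0.758 (Spearman). Bright arrays had low shared levels. Without the 2 arrays farthest from the median brightness, HF20 Week 15 and LFC Week 12, it was -0.684, and leaving out each array in turn gave -0.781 to -0.709. Within the diets it was -0.746 in LFC, -0.778 in HFC, -0.592 in HF5, -0.917 in HF20 and -0.674 in HF75. So the sign was the same within each of the 5 diets. Within the 9 arrays titled BA or BAT it was -0.759 and within the 30 others -0.745. These points share the scale, since brightness is also what each value was divided by, and the correlation is a description over arrays. With the share of spots well above background as the measure of brightness it was -0.762.

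The relation changed under a background correction that also added a constant to each spot. When the scanner's mean and background signals were corrected by the normexp model instead, the correlation was 0.136 (Pearson) and 0.169 (Spearman), near 0 and of the other sign. HF20 Week 15 stayed the lowest array, at -2.21 from the mean, but HF20 Week 9, which was at 0.68 before, came to lie at -1.73. HF75 Week 9, the highest array before, came to lie at -0.89. The shared level of these 2 dim arrays thus changed sign in this setting. It added an offset of 50 intensity units to each spot. The 75th percentile of the processed signal was lower than that, at 18.1 on HF20 Week 9 and 21.85 on HF75 Week 9. The parts of the correction and of the offset were not tested apart.

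**Figure D2:**
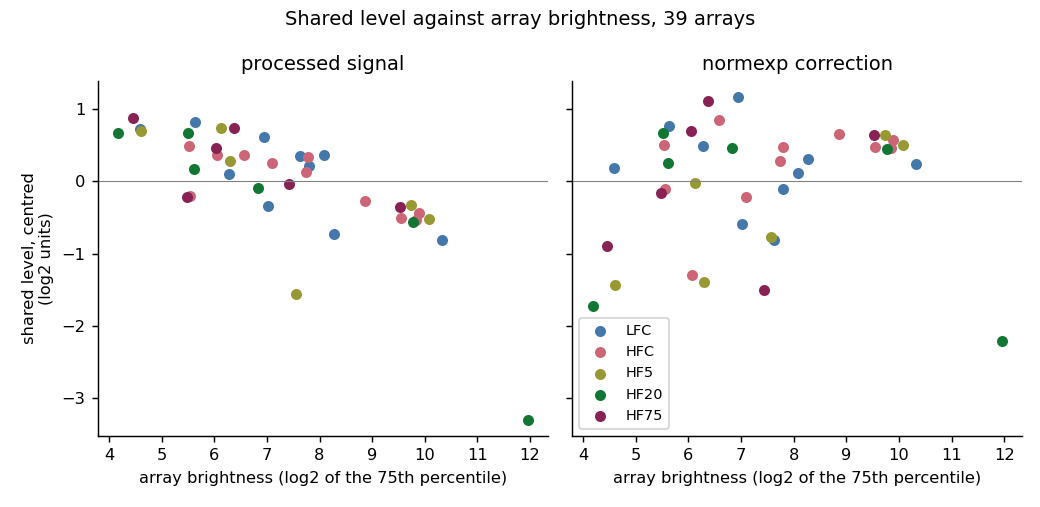
Shared level, centred on its mean over arrays (log2 units), against array brightness (log2 of the 75th percentile), with the scanner's processed signal on the left and the normexp correction on the right. Each point is 1 of 39 arrays, coloured by diet. The points fall from left to right on the left (r = -0.744) and not on the right (r = 0.136).

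Single members were then fitted with diet and log2 brightness over all arrays, and the slope gives the log2 difference per doubling of brightness. By limma with Benjamini-Hochberg adjustment over 34043 probes at 0.05, 71 of the 84 members fell with brightness and 1, Rps19, rose. Of all probes tested 56.3% were called, 44.6% lower and 11.7% higher, so a fall with brightness was common on these arrays. The median slope of the members was -0.28, against -0.15 for all probes. The 12 members not called had slopes between -0.21 (Rps6) and 0.06 (Rpl7l1). With normexp the members' median was 0.09 and that of all probes -0.33. In that setting 9 members fell and 10 rose, among them Rps19, Rps27l, Rpl3 and Rpsa. Of all probes 81.2% were called there, so members were called less often than probes in general.

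The steepest slopes among members well above background on all arrays belonged to the stalk and to some small subunit proteins. Rplp1 and Rplp2 bind Rplp0 as pairs and reach for the elongation factors. Rplp1 had a slope of -0.69 ± 0.05 (SE, adjusted p = 9.48e-14, limma) and Rplp2 one of -0.65 ± 0.04 (adjusted p = 2.55e-14, limma). Rps23, a protein of the decoding centre, followed with -0.63 ± 0.05 and Rps18, of the head of the small subunit, with -0.60 ± 0.05. All 4 kept a fall under normexp, but that setting kept saturated spots, so the part of saturation was not tested by it. Rplp1 was saturated on 14 arrays and Rplp2 on 13. Rpl10l had the steepest slope of all, -0.88 ± 0.14, but was well above background on only 9 arrays.

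Saturation of the scanner moved with these slopes. Rplp1 was lowest at 5.71, 6.11, 6.12, 4.12 and 6.62 in LFC, HFC, HF5, HF20 and HF75, and its medians were 8.50, 8.10, 8.24, 8.65 and 8.69. On HFC Week 12 the spots of Rplp1, Rplp2, Rps23 and Rps27 were saturated and all read 6.11, and 40 members in all were saturated there. A saturated spot gives only a lower bound of the level. The 32 members saturated on 5 or more arrays had a median slope of -0.42, the 13 on 1 to 4 arrays -0.29, and the 39 never saturated -0.21, of which 35 were below 0. With saturated spots left out, the shared level still had a correlation of -0.602 with brightness. The median slope of the members was then -0.29 with 70 called lower, against -0.28 with 71 before. The slope had little relation to the GC content of the probe (r = 0.0965 over the 84 members). Its correlation with the raw intensity of the probe was -0.437. The 19 probes that hold AATAAA or ATTAAA had a median slope of -0.41, and the 65 without these letters -0.25.

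**Figure D3:**
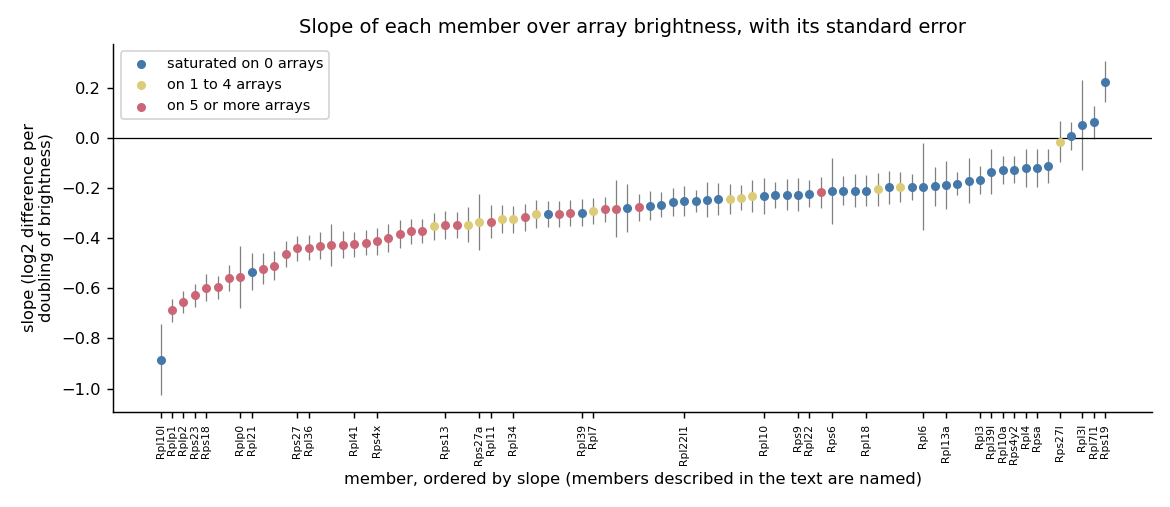
Slope of each of the 84 members over array brightness (log2 difference per doubling of the 75th percentile, y axis) with its SE, ordered by slope, with the members described in the text named on the x axis, and coloured by the number of arrays on which its spots were saturated. Members saturated on 5 or more arrays lie mostly on the left, and Rps19 at the right end is the only one called higher.

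Rps19, a protein of the small subunit needed to mature its RNA and mutated in Diamond-Blackfan anaemia, is the member called higher. Its level ranged from 0.76 to 3.39 in LFC (median 1.55), from 0.97 to 3.21 in HFC (median 1.46) and from 0.05 to 3.36 in HF5 (median 1.68). In HF20 it lay between 0.92 and 3.22 (median 1.70) and in HF75 between 0.63 and 3.17 (median 2.23). The diets overlapped over most of their ranges. Its slope over brightness was 0.22 ± 0.08 (adjusted p = 0.0211, limma), with the outlier-flagged HF20 Week 15 spot left out. The call was lost with quantile normalization (0.15, adjusted p = 0.0974, limma), with outlier-flagged spots kept (0.09, adjusted p = 0.405) and without the arrays titled BA or BAT (-0.13, adjusted p = 0.401). Its correlation with the mean of the other members was -0.13, where the median member had 0.892, and 0.185 with outlier-flagged spots kept. The low value went with the arrays titled BA or BAT. On those 9 arrays Rps19 had a median of 3.17 and a correlation of -0.735 with the other members, and on the other arrays a median of 1.503 and a correlation of 0.517.

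Most members moved together. For each of the 77 members, the correlation over arrays with the mean of the others had a median of 0.892, and 60 members, or 77.9%, were over 0.8. Of 8079 other genes well above background on all arrays, 7.48% were over 0.8, with a median of 0.415. Rps13 (0.984), Rpl34 (0.978) and Rpl11 (0.971) were the most typical members. The 2 low arrays carried part of this. Without HF20 Week 15 and HF5 Week 12 the median was 0.809 for members (51.9% over 0.8) and 0.0225 for the other genes (4.06% over 0.8). The points share the scaling of each array.

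Rps13, an early binder of the small subunit, may stand for the typical member. Its level ranged from 5.62 to 7.82 in LFC (median 6.96), from 5.92 to 7.23 in HFC (median 6.65) and from 5.15 to 7.68 in HF5 (median 6.70). In HF20 it lay between 3.13 and 7.58 (median 6.63) and in HF75 between 6.31 and 7.64 (median 6.87). As with the shared level, the diets overlapped and the lowest value belonged to HF20 Week 15.

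Other genes of translation were set against the shared level by the mean of each list. For the 75 mitochondrial ribosomal proteins, the correlation of their mean level with the shared level was 0.262, and -0.429 without the 2 low arrays. For 37 translation factors it was 0.708 and -0.094, and for 30 ribosome assembly genes 0.566 and -0.384. Over brightness the mitochondrial ribosomal proteins had a median slope of 0.10, with 28 of 75 called higher and 0 lower. Of all probes 11.7% were called higher and 44.6% lower. Among the translation factors Eef1a1, Eef1b2, Eef1d, Eif3g, Eif3h, Pabpc1 and Tpt1 fell, with the lowest slope for Eef1a1 (-0.44), which delivers aminoacyl tRNA to the ribosome. Rps6kb1, the S6 kinase of the mTOR pathway, was the only one of the 37 that rose. Among the assembly genes Fbl, Npm1 and Tcof1 fell, with the lowest slope for Tcof1 (-0.20), and 6 rose, with the highest slope for Nop2 (0.25), which methylates ribosomal RNA.

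Second probes of the same genes were also read, on the same arrays and divided by the same percentile. Of 35 members with further probes, 46 such probes were kept, and their correlation with the first probe had a median of 0.769. Their slope over brightness was below 0 in 44 of 46, against 68.26% of all probes. For the 35 probes well above background on all arrays the median correlation was 0.831, and all 35 slopes were below 0. Ribosomal protein genes have many processed copies in the genome, and 35 of the 84 member probes share a stretch of 25 bases with a probe of another symbol. The 580 kept genes described as similar to a ribosomal protein had a median slope over brightness of -0.26. Of these 434 fell, against 44.6% of all probes. Of the 12 other genes most like the shared level (r from 0.970 to 0.976), 7 were described as such copies. Signal of a member and of its copies may therefore not be separate.

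Markers of the labelled cells and of other cell types also moved between arrays. The mean level of 9 macrophage markers, of which 6 were well above background on all arrays, ranged from -1.44 to 2.14, with medians of -0.22, 0.20, 0.25, 0.01 and 0.37 in LFC, HFC, HF5, HF20 and HF75. Its correlation with the shared level was 0.534. Macrophage RNA was thus measured, beside RNA of other cells. Brown adipocyte markers, 7 of 9 of them well above background on all arrays, had a mean level with medians between 2.95 (HFC) and 4.81 (HF5) and r = 0.373 with the shared level. Skeletal muscle markers (7 of 10) ranged from -4.15 to 5.05 with r = 0.0229. Erythroid markers (4 of 5) ranged from -0.57 to 6.07, with r = 0.699 for the shared level and -0.919 for brightness, and had medians between 2.79 (HF5) and 4.31 (HF75). Neutrophil markers (2 of 5) ranged from -4.98 to 5.38 with r = 0.432. T cell and B cell markers, of which 0 of 4 each were well above background on all arrays, had r = 0.493 and 0.497. Over brightness 5 of 5 erythroid and 5 of 5 neutrophil markers fell by limma, with median slopes of -1.08 and -1.09. So did 4 of 4 T cell, 4 of 4 B cell, 5 of 9 macrophage and 4 of 9 brown adipocyte markers. Of the muscle markers 0 of 10 fell, and 44.6% of all probes did. Only 1 marker rose, Dio2 of the brown adipocyte list. Without the 2 low arrays the correlations with the shared level were 0.391 for macrophage, 0.0634 for brown adipocyte, -0.0919 for muscle, 0.731 for erythroid, 0.691 for neutrophil, 0.544 for T cell and 0.586 for B cell markers. The part of these cells in the shared level was not tested.

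The comparison of diets asked whether the members as a group shift under high fat or with KAL-1. By limma with diet and time label as terms, 0 of 84 members passed at an adjusted p of 0.05 in each of the 4 comparisons, and percent called among all 34043 probes was 0% in each. At an unadjusted p under 0.05 there were 2 members for HFC minus LFC (2.85% of all probes), 1 for HF5 minus HFC (1.5%), 0 for HF20 minus HFC (2.95%) and 0 for HF75 minus HFC (3.56%). The median difference of the members was -0.15 for HFC minus LFC, -0.06 for HF5 minus HFC, -0.34 for HF20 minus HFC and 0.25 for HF75 minus HFC. For all probes it was 0.05, -0.03, -0.02 and 0.05. The methods' t-test, on the same values, gave 0 members in each comparison after Benjamini-Hochberg adjustment and 3, 1, 0 and 0 members at an unadjusted p under 0.05. The SE of a single member had a median of 0.38 to 0.47. The sign of each of these medians turned in at least 1 other setting. It was 0.05 with quantile normalization for HFC minus LFC, 0.13 for HF5 and 0.20 for HF20 minus HFC without the arrays with over 10% of outlier-flagged spots, and -0.22 with the normexp correction for HF75 minus HFC. For HF20 it was also 0.21 without HF20 Week 15 alone. With data simulated at this spread, 1% of 2-fold, 62.5% of 4-fold and 97% of 16-fold differences of HFC from LFC were recovered. A 2-fold shift of a single member was thus not detectable in that comparison. For the doses against HFC, where the median SE was larger, recovery was not scored.

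Side by side at each time label, the members' median changed sign within each comparison. HFC was above LFC at 3 of 10 time labels, with medians from -1.09 at Week 9 to 1.14 at Week 18. HF5 was above HFC at 3 of 6, from -1.27 (Week 12) to 0.80 (Week 6). HF20 was above HFC at 3 of 6, from -3.64 (Week 15) to 1.12 (Week 9). HF75 was above HFC at 4 of 6, from -0.77 (Week 15) to 1.35 (Week 9). The sign was opposite to that of the brightness difference of the 2 arrays in 6 of 10, 4 of 6, 5 of 6 and 4 of 6 labels. At HFC minus LFC Week 9 the HFC array was brighter by 5.25 on the log2 scale, and at HF75 minus HFC Week 9 the HF75 array was dimmer by 5.39. With log2 brightness as a further term in the fit, the medians over all time labels were -0.06 for HFC minus LFC, -0.23 for HF5, -0.53 for HF20 and -0.13 for HF75 minus HFC, so the sign turned for HF75. The HFC arrays serve as control for the 3 doses, so these comparisons share them.

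**Figure D4:**
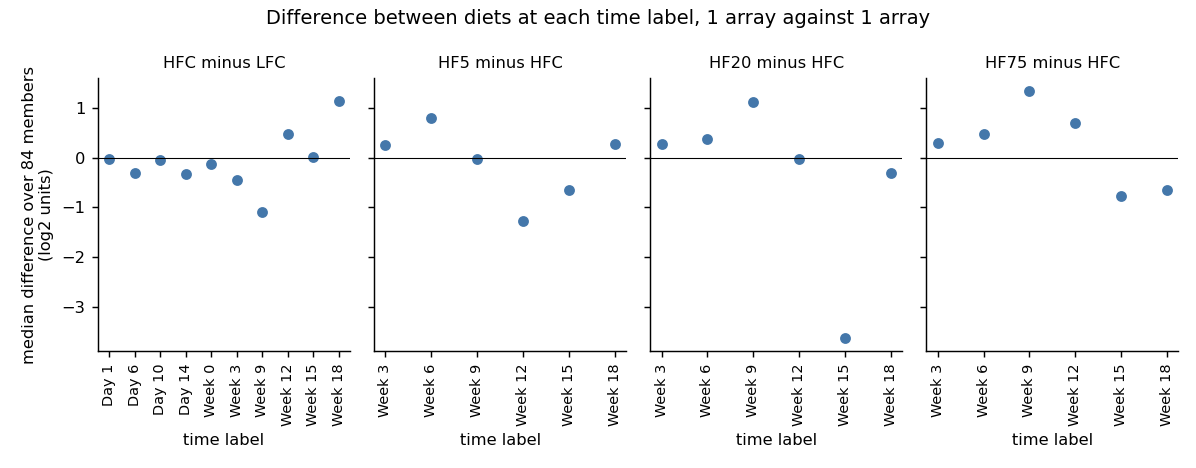
Median over the members of the difference between 2 diets at each time label (log2 units), 1 array against 1 array. Each panel is 1 comparison and the line marks 0. Values lie on both sides of 0 in each panel, and HF20 minus HFC at Week 15 is lowest at -3.64.

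Day 14 and Week 0 gave the only repeat of a diet on 1 day. Week 0 minus Day 14 had a member median of 0.03 in LFC, with 44 of 84 members higher, and 0.31 in HFC, with 65 higher. Of the members 10 in LFC and 9 in HFC differed at least 2-fold, against 45.4% and 53.6% of all probes. Rpl6 differed most upward in both, by 2.96 in LFC and 2.36 in HFC.

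Over time, the 21 LFC and HFC arrays were fitted with diet and log2 of days. Again 0 of 84 members passed by limma after adjustment (0% of all probes). At an unadjusted p under 0.05 there were 3 members, against 11.9% of all probes. The members' median was -0.01 log2 units per doubling of days, and that of all probes -0.05. Rps19 had the smallest p, with a slope of 0.23 ± 0.07 (p = 0.00454, adjusted p = 0.241, limma), Rps27l had 0.14 ± 0.05 (adjusted p = 0.326) and Rpl13a, which also takes part in silencing inflammatory mRNAs in macrophages, had 0.25 ± 0.11 (adjusted p = 0.378). These 3 did not pass.

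The outlying members in the diet comparisons also did not pass. Rps4y2, named as a form of Rps4, whose main gene Rps4x lies on the X chromosome, ranged from 2.75 to 4.29 in LFC (median 3.64) and from 2.33 to 3.17 in HFC (median 2.81). The ranges overlapped, and HFC minus LFC was -0.79 ± 0.30 (unadjusted p = 0.0127, adjusted p = 1, limma). Rpl39l, a form of Rpl39 best known from testis, had medians of 0.42 in HF5 and -1.50 in HFC, with ranges of -1.56 to 1.96 and -3.28 to 0.05. HF5 minus HFC was 1.47 ± 0.53 (unadjusted p = 0.0103, adjusted p = 1). Rpl39 itself differed by 0.10 in the same comparison. In HF20 minus HFC the smallest p belonged to Rpsa, also known as the laminin receptor (-0.89 ± 0.47), Rps9 (-0.85 ± 0.45) and Rpl18 (-0.74 ± 0.44), all with an adjusted p of 0.986. In HF75 minus HFC they were Rpl21 (1.04 ± 0.69), Rpl36 (0.73 ± 0.49) and Rpl41 (0.67 ± 0.46), with an adjusted p of 1.

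Rpl3l, the form of Rpl3 found in skeletal muscle and heart, was the member least like the others, with a correlation of -0.17 with the shared level. Its values ranged from -6.37 to 0.41 in LFC (median -2.37), from -4.96 to 0.52 in HFC (median -2.57), from -5.12 to 0.61 in HF5 (median -2.33), from -4.21 to 1.49 in HF20 (median -2.01) and from -3.02 to -0.32 in HF75 (median -1.52). The diets overlapped. Over the 38 arrays with a value, its correlation with the mean of the 10 muscle markers was 0.918, and 0.921 without the arrays with over 10% of outlier-flagged spots. On 12 arrays it was not well above background. These held the low ends of LFC (Week 0), HFC (Week 0) and HF20 (Week 3), which are therefore bounds. The low ends of HF5 (Week 9) and HF75 (Week 6) were well above background. Over the 26 other arrays with a value the correlation with the muscle markers was 0.923. It was highest on HF20 Week 12 at 1.49, where the muscle mean was 5.05, the highest of all arrays. Rpl3 itself had -0.21 with the muscle markers and 0.829 with the shared level. The probe of Rpl3l (a gene of chromosome 17) is shown because these values rest on it alone.
Rpl3l probe: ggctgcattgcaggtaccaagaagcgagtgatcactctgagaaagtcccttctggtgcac

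The other related forms were read from their own probes. Rpl10l is the form of Rpl10 that serves in male germ cells. It was well above background on 3 of 10 LFC, 3 of 11 HFC, 1 of 6 HF5 and 2 of 6 HF20 arrays. In HF75 it was well above background on no array, so its values are mostly bounds. Rpl7l1, a nucleolar relative of Rpl7, had r = 0.26 with the other members and medians of 0.70, 0.33, 0.64, 0.20 and -0.06 in LFC, HFC, HF5, HF20 and HF75. Rps27l, a form of Rps27 that p53 can induce, had medians between 4.37 (HFC) and 4.93 (HF5). Its slope over brightness was -0.01, while Rps27 had -0.44. Rps27l read 5.42 to 5.84 on LFC Week 12, HFC Week 9, HF5 Week 9 and Week 15, HF20 Week 12 and HF75 Week 15. These arrays are titled BA or BAT, and on the others, some titled so as well, it read at most 5.08. Rpl22l1 had medians between 3.99 (HFC) and 4.28 (HF20). Rpl10, Rpl22 and Rpl7, their parent genes, had differences between -0.26 and 0.14 for HFC minus LFC. None of these differences passed the test.

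Some members read far below their usual level on 2 LFC arrays, while most members did not. A drop was set, after these values were seen, as a probe at least 16-fold below its median after the shift of all probes on that array. Only LFC Day 1 and LFC Week 18 had member probes with a drop, namely 6 and 9 of the 111 member probes that could be read for this. Over all 4655 such probes the share with a drop was 2.45% on LFC Day 1 and 8.98% on LFC Week 18, so drops were found well beyond the members. On the other 37 arrays the share was at most 1.2%.

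Rpl6, a large subunit protein, dropped on both arrays. Its level was -3.99 on LFC Day 1 and -3.30 on LFC Week 18, not well above background on either, while its median was 4.83 and its lowest value elsewhere was 1.85. The second probe of Rpl6 read 3.76 on LFC Day 1, at a median of 3.67, so this probe showed no drop there, and its spot on LFC Week 18 carried an outlier flag. The 2 probes of Rpl6 are shown because their values part on these arrays.
Rpl6 first probe (chromosome 5): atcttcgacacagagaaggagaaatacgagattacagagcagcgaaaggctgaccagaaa
Rpl6 second probe (chromosome 5): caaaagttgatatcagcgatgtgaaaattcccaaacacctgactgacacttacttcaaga
Over all arrays the 2 probes had a correlation of 0.244, and the second had 0.848 with the shared level.

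Rps6, the small subunit protein that S6 kinase phosphorylates downstream of mTOR, read -1.42 on LFC Day 1 and -2.29 on LFC Week 18, not well above background on either, at a median of 4.73. It has 1 probe. Elsewhere in LFC it reached 5.40, and in the other diets it ranged from 3.08 to 5.47 (HFC), 2.63 to 5.18 (HF5), 1.66 to 5.18 (HF20) and 3.23 to 5.37 (HF75).
Rps6 probe (chromosome 4): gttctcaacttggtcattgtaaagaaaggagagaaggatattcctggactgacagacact
Rplp0, the base of the stalk and a common reference gene in PCR, read 7.01 on LFC Day 1 and -1.33 on LFC Week 18, at a median of 7.85. Its second probe read 3.44 and -0.65, at a median of 8.21. Both probes were thus low on LFC Week 18.

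Rps27a, Rps25 and Rpl13a dropped too, and Rps25 was named after its values were seen. Rps27a, which encodes ubiquitin joined to a small subunit protein, read -1.29 on LFC Week 18 at a median of 6.17. Rps25 read 1.42 on LFC Week 18 (median 6.91), but its second probe read 6.21 at a median of 6.22. Rpl13a read 0.82 on LFC Day 1 (median 5.39). Thus the probes of Rplp0 were low together on LFC Week 18, while those of Rps25 were not.

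**Figure D5:**
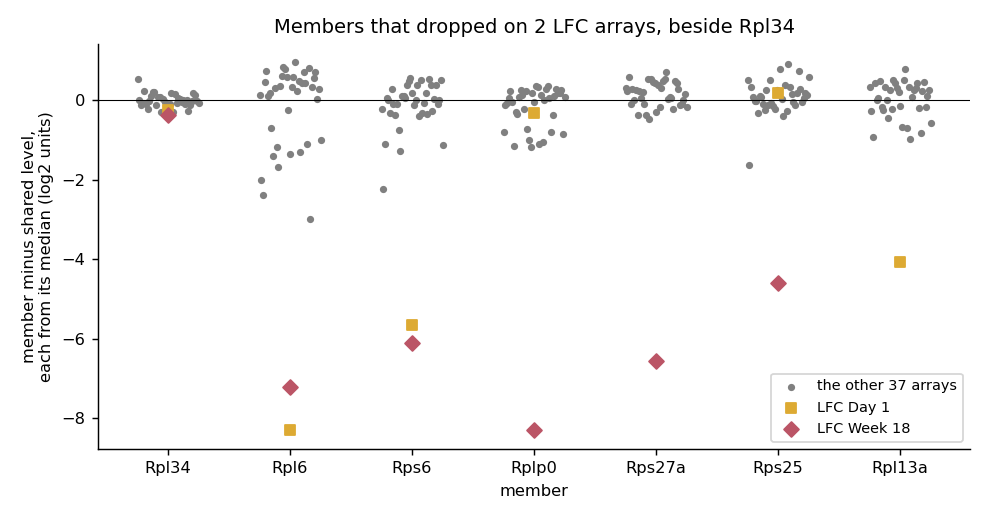
Member minus shared level, each set to 0 at its median over arrays (log2 units), for Rpl34 as a typical member and 6 members described for their drops. Squares are LFC Day 1, diamonds LFC Week 18 and grey points the other 37 arrays. A missing symbol means an outlier-flagged spot. Rpl34 lies near 0 on both arrays, while Rpl6 and Rplp0 lie below -7 on LFC Week 18.

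These 2 arrays set the diet difference of the members that dropped. For Rpl6, HFC minus LFC was 1.46 ± 0.64 (unadjusted p = 0.0313, adjusted p = 1, limma), the largest difference of the 84 members, and 0.10 ± 0.34 without LFC Day 1 and LFC Week 18. For Rps6 it was 1.32 ± 0.65 (adjusted p = 1) and 0.09 ± 0.41 without them. For Rplp0 it was 0.73 ± 0.78 and turned to -0.28 ± 0.48. The second probe of Rpl6 gave -0.04 over all arrays. Rps4y2, which did not drop, kept -0.87 ± 0.33 without these arrays.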

How the data were processed

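Per the file headers, the deposited scanner files give the intensity of each spot with its background removed by Feature Extraction, Agilent's software (10.5.1.1 in the headers, 9.1 in the labels), without scaling between arrays. The series table that was deposited with them contains the authors' log2 values, scaled and set against LFC. It supplied gene symbols, descriptions and the Day 14 check, and its 37 columns of sample values entered no comparison. Each array was used as log2 of the processed signal minus log2 of its 75th percentile, taken over all spots but controls. Outlier-flagged spots counted in this percentile. They were then left out, and the other spots were averaged per probe. Of 40628 probes, 34043 were well above background on 6 or more of 39 arrays. Fits used limma 3.58.1 (R 4.3.3) with two-sided p-values, Benjamini-Hochberg over kept probes and a threshold of 0.05, tested on simulated data. Diet fits had the time label as a block. Correlations used pandas 2.3.3 and numpy 2.4.6 (Python 3.11.15). Alternatives were other normalizations, filters, blocks and arrays left out. Arrays have no depth beyond signal over background. The members, gene lists and tests were chosen with earlier results of these data known. Named members were related forms with their parents, the stalk, Rpsa and Rps27a, the 5 lowest and 3 highest correlations with the others, the 3 largest spreads, and in each fit up to 5 called members each way or the 3 smallest p. Some genes are not reported here.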

Additional observations from a re-analysis of the deposited data

Results flagged for a closer look

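Within LFC, HF5, HF20 and HF75, the highest and lowest array of each member was set against the gap to its neighbour (Dixon's limit at 95%). HFC, with 11 arrays, was not tested. Of 336 sets of a member and a diet, 77, or 22.9%, had an array beyond the limit, where chance gives about 1 in 20, and the members share their arrays. HF20 Week 15 stood apart in 42 sets and HF5 Week 12 in 17, and both are among the arrays with over 10% of outlier-flagged spots.

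The shared level on HF20 Week 15 was 2.25, at a median of 5.59 in HF20. On this array Rpl3 read 2.06, Rpl4 -1.23, Rpl7 3.22, Rpl10 0.24, Rpl10a 0.59, Rpl11 2.16, Rpl13a 1.74, Rpl18 1.08 and Rpl22 2.23. Rpl34 read 3.29, Rpl41 3.46, Rpsa -0.56, Rps6 1.66, Rps9 0.56, Rps13 3.13, Rps27l 0.83 and Rps4y2 0.71 there. All lay below the other HF20 arrays.

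On HF5 Week 12, Rpl3 read 2.73, Rpl10 2.54, Rpl10a 1.43, Rpl13a 2.97, Rpl18 2.32, Rpl7l1 -2.8, Rps6 2.63 and Rps9 3.06, all below the other HF5 arrays. In LFC, Rplp0 at -1.33 and Rps27a at -1.29 stood apart on Week 18, Rpl13a at 0.82 on Day 1, and Rplp1 at 5.71, Rpl41 at 5.72 and Rps18 at 5.66 on Week 12, where 40 members were saturated. In HF75, Rps6 at 3.23 on Week 18 and Rps23 at 6.37 on Week 15 stood apart.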

How the results depend on the processing

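No member passed the threshold for any diet comparison or the slope over time under any alternative run, and the members' median differences between diets moved by less than the spread over time labels. The sign of all 4 medians turned in some setting. For HFC minus LFC it was 0.0489 with quantile normalization, 0.0667 with the percentile over probes well above background on all arrays and 0.0564 with normexp. HF5 and HF20 minus HFC were 0.0046 and 0.0452 with that percentile, and -0.6033 and -0.5365 with normexp. Without arrays with over 10% of outlier-flagged spots they gave 0.1347 and 0.2037, HF5 gave 0.1787 with array weights, and HF20 gave 0.2109 without HF20 Week 15. HF75 minus HFC was -0.2211 with normexp, -0.0563 without arrays titled BA or BAT and -0.1315 with brightness as a term. Without LFC Day 1 and Week 18, HFC minus LFC was -0.3056. Leaving out each time label gave medians of -0.264 to -0.051 for HFC minus LFC, -0.226 to 0.103 for HF5, -0.584 to 0.303 for HF20 and 0.088 to 0.431 for HF75 minus HFC, with counts of 0 to 0. With no replicate block, that is, without pairing by time label, the medians were -0.163, -0.112, -0.372 and 0.241, and the block changed no call. The median slope over time was 0.056 without arrays titled BA or BAT. The median slope over brightness was -0.1725 with quantile normalization, 0.0912 with normexp (19 members called), -0.2081 without arrays with over 10% of outlier-flagged spots, -0.3559 without arrays titled BA or BAT, -0.2177 with array weights and -0.2022 without HF20 Week 15. The correlation of the shared level with brightness was -0.8409 when the percentile was taken over probes well above background on all arrays, 0.1362 with normexp, -0.6019 without saturated spots, -0.7847 without arrays with over 10% of outlier-flagged spots, -0.6842 without the 2 arrays farthest from the median brightness and -0.7935 without HF20 Week 15 and HF5 Week 12. The median correlation between members was 0.7085 with quantile normalization. The cause was not tested. The slide could not be a block for the slope over time, since each of those arrays has its own slide. Settings that leave out single named arrays or exchange the Day 14 arrays were chosen after seeing the data. Signal over background and saturation limit weak and strong members respectively.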
